A study of Homo sapiens with 18 samples.

Results

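The genes described are 42 human genes that each span more than 200 kb of the genome, followed across siPSF, siCTBP1-AS and siControl cells. They were chosen by symbol, with earlier results of these data known. Each was read through the transcript cluster that the array annotation gives that symbol, taking the cluster with the highest mean where there were several. Of the 42 genes, 40 had a cluster, with 1 cluster each, out of 18417 named genes. The RNA of MAGI1 and MAGI2 was not analysed here. The 25% of genes with the lowest mean signal were left out before testing, which removed 8 of the 40 (DMD, DLG2, LRP1B, TCF4, RBMS3, DPYD, CNTNAP2 and PTPRD) and kept 32 among 13812 fitted genes. By the RefSeq annotation of GRCh38.p14 the 42 genes spanned 317.3 kb (EXT1) to 2304.2 kb (CNTNAP2), with a median of 736.85 kb, and 37 were over 500 kb.

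The study measured RNA on 18 Affymetrix gene arrays in LNCaP and VCaP, 2 androgen-responsive prostate cancer cell lines. Cells were transfected 48 h before hormone with siPSF (against the RNA-binding protein PSF, gene SFPQ), siCTBP1-AS (against CTBP1-AS, an antisense RNA of the CTBP1 gene) or siControl, then given vehicle (ethanol) or R1881, a synthetic androgen. All cells had been held for 3 days in charcoal-treated serum, at 2.5% for LNCaP and 5% for VCaP, and the labels do not say how long the hormone acted. Array names put the arrays in 4 sets with 1 array per siRNA and treatment. LNCaP set 3 held siPSF and siControl with R1881 at 10 nM, and the VCaP set held siPSF, siCTBP1-AS #2 and siControl at 1 nM. LNCaP set 1 held siCTBP1-AS and siControl at 10 nM, and LNCaP set 2 held siCTBP1-AS #2 and siControl at 1 nM. What the mark #2 stands for is not given. No label says that arrays came from separate cultures, and no set repeats a siRNA and treatment. The p-values therefore measure how far effects differed between the sets of arrays. That spread may be technical, and it also holds differences of cell line, R1881 dose and the mark #2. Signals are log2 RMA values, in which 1 unit is a doubling. Differences were taken within a set because the array medians differed between sets (6.43 to 7.47 over all named genes).

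As background, PSF is a nuclear protein that binds RNA, sits in paraspeckles with its partners NONO and PSPC1, and takes part in transcription and splicing. A very long gene occupies RNA polymerase II for hours in a single pass, so its RNA depends on sustained elongation and on splicing across very large introns. Loss of Sfpq in mouse neurons and muscle is known to lower long genes. Several of the genes here (FHIT, WWOX, MACROD2, IMMP2L, LRP1B) lie at common fragile sites, where long transcription units break under replication stress.

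The siRNA target itself was measured first. SFPQ read 10.47 with vehicle and 9.89 with R1881 in siPSF LNCaP cells, against 11.15 and 10.79 in siControl cells of the same set. In VCaP it read 9.70 and 9.61 with siPSF, against 11.02 and 11.16 with siControl. The fitted siPSF effect on SFPQ was -1.18 (SE 0.14, adjusted p = 0.000748), so its RNA was lower in every siPSF array than in both siControl arrays of its set. PSPC1, a paralog and paraspeckle partner of PSF, rose by 0.68 (SE 0.10, adjusted p = 0.00565). The other 5 measured genes on a list of 8 PSF partners, NONO among them, lay between -0.10 and 0.14 and did not pass the test. The array medians of 6 luminal prostate markers lay at the 96.4 to 99.2 percentile of all named genes, and those of fibroblast, leukocyte and neuron markers at the 10.7 to 40.9 percentile.

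With siPSF, of the 32 fitted, 9 were lower at an adjusted p under 0.05 and 0 were higher, where 1.26% of all fitted genes were called lower, 0.188% higher and 1.45% either way. The 9 were SUPT3H, TBC1D5, SMYD3, FARS2, FTO, PTPRG, PTPRK, RAD51B and LPP, with effects of -1.04 to -0.40 log2 units. All 32 fitted effects were below 0, and their median was -0.41 (quartiles -0.75 and -0.18), while the median over all fitted genes was -0.00. Effects were below 0 for 51% of all fitted genes and 75% of the 813 other fitted genes over 200 kb. Those 813 had a median of -0.16, with 9.84% called lower. The list was chosen with earlier results of these data known, so these counts are no independent test of it. An unadjusted p under 0.05 was reached by 22 of the 32, against 13.4% of all fitted genes and 35.3% of the other genes over 200 kb. A siPSF effect is siPSF minus siControl over both treatments, from limma on all 18 arrays with the set as a block, so it is not the plain mean of the 4 differences within sets. In extracts of whole cultures, fewer cells of a type and less RNA per cell cannot be told apart.

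The 4 differences within sets ran the same way. The median over the 32 genes was -0.47 in LNCaP with vehicle (29 genes below 0) and -0.46 with R1881 (31 below 0). In VCaP it was -0.39 with vehicle (30 below 0) and -0.25 with R1881 (26 below 0). The medians over all fitted genes lay between -0.02 and 0.00. In each comparison 49.2% to 54% of all fitted genes and 65.8% to 74.4% of other genes over 200 kb were below 0. In VCaP the gene highest above siControl was IFI44L, an interferon-induced gene (5.49 with vehicle, 5.39 with R1881), and the part of that response in the values of the long genes was not tested. All 4 differences were below 0 for 23 of the 32 genes, against 14.7% of all fitted genes and 36.5% of the other genes over 200 kb. For 17 of the 32, both siPSF arrays lay below both siControl arrays in LNCaP and again in VCaP. This held for 5.37% of all fitted genes and 17.8% of the other genes over 200 kb. Of the 8 genes with signals too low for the fit, 2 had all 4 differences below 0, DLG2 and RBMS3.

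**Figure D1:**
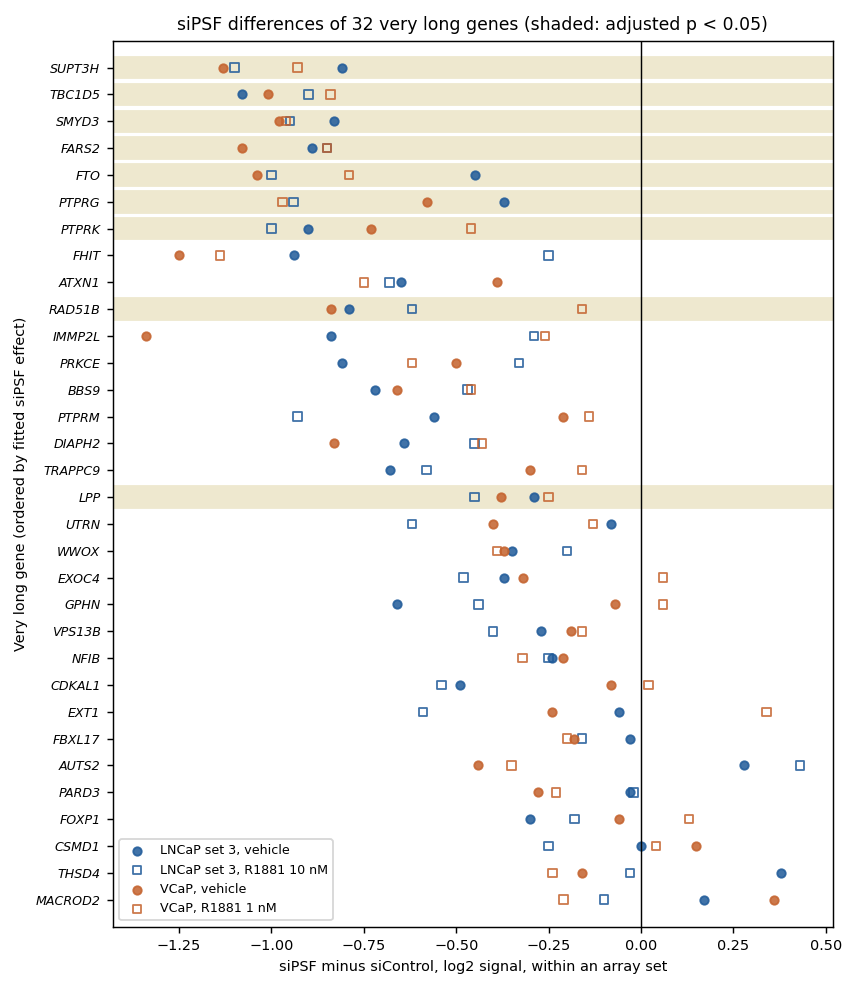
siPSF minus siControl log2 signal within each array set (x axis) for the 32 fitted genes (y axis), ordered by the fitted siPSF effect. Circles are vehicle and open squares R1881, blue LNCaP set 3 and orange VCaP, with shading for the 9 genes at an adjusted p under 0.05. Points lie mostly left of 0, and AUTS2 is right of 0 in LNCaP (0.28 and 0.43) and left of it in VCaP (-0.44 and -0.35).

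In the group of transcription, chromatin and RNA genes, which also holds the DNA repair gene RAD51B, 4 of 8 fitted genes were called lower with siPSF (median -0.67). For this and the groups below, 1.26% of all fitted genes and 9.84% of other genes over 200 kb were called lower. SUPT3H, a subunit of the SAGA histone acetyltransferase complex that spans 568.9 kb, read 7.09 and 6.42 (vehicle, R1881) in siPSF LNCaP cells, against 7.90 and 7.52 in siControl cells. In VCaP it read 5.83 and 4.93 with siPSF, against 6.96 and 5.87 with siControl. Its siPSF arrays lay below both siControl arrays in each line, and it fell by 51.3% (log2 effect -1.04, SE 0.09, adjusted p = 0.000177).

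SMYD3, a lysine methyltransferase gene of 757.9 kb, read 7.96 and 7.56 with siPSF in LNCaP, against 8.79 and 8.51 with siControl. Its VCaP signals were 7.15 and 6.76 with siPSF, against 8.12 and 7.72 with siControl, so the 4 differences were nearly equal (-0.83 to -0.98). The effect was -0.88 (SE 0.12, adjusted p = 0.00268). FTO, an RNA N6-methyladenosine demethylase gene of 418.0 kb, had signals of 9.57 and 8.96 with siPSF in LNCaP, against 10.02 and 9.97 with siControl. In VCaP its signals were 8.69 and 8.09 with siPSF, against 9.74 and 8.87 with siControl, again without overlap. The effect on FTO was -0.79 (SE 0.10, adjusted p = 0.00182). RAD51B, a DNA repair gene that spans 863.3 kb, read 7.29 and 7.01 with siPSF in LNCaP, against 8.08 and 7.64 with siControl. Its VCaP signals overlapped between siRNAs, at 6.44 and 5.66 with siPSF against 7.28 and 5.82 with siControl. R1881 alone lowered it in VCaP siControl cells. Its effect was -0.58 (SE 0.11, adjusted p = 0.0304). Of the other 4 in this group, ATXN1 had -0.75 with a wide error (SE 0.22, adjusted p = 0.133), and the transcription factor genes NFIB (-0.22) and FOXP1 (-0.09) and the Polycomb-associated AUTS2 (-0.10) did not pass the test.

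Among phosphatases and kinases, 2 of 4 fitted genes were called lower (median -0.64). PTPRG, a receptor tyrosine phosphatase gene of 736.0 kb, read 7.35 and 7.03 with siPSF in LNCaP, against 7.73 and 7.97 with siControl. Its VCaP signals were 5.72 and 5.53 with siPSF, against 6.3 and 6.5 with siControl. The groups did not overlap in either line, and the effect was -0.77 (SE 0.11, adjusted p = 0.00416). PTPRK, a related phosphatase gene of 551.8 kb that acts at cell contacts, read 6.41 and 6.11 with siPSF in LNCaP, against 7.31 and 7.11 with siControl. In VCaP it read 8.25 and 8.09 with siPSF, against 8.98 and 8.55 with siControl, and its effect was -0.77 (SE 0.16, adjusted p = 0.0412). PRKCE, a protein kinase C isoform, was below 0 in all 4 differences (-0.81 to -0.33) with an effect of -0.51 (adjusted p = 0.0855), and PTPRM had -0.48.

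Among genes of membrane trafficking and cilia, 1 of 5 was called lower (median -0.42). TBC1D5, a Rab7 regulator of the retromer pathway that spans 585.5 kb, read 7.93 and 7.59 with siPSF in LNCaP, against 9.01 and 8.49 with siControl. Its VCaP signals were 7.88 and 7.49 with siPSF, against 8.89 and 8.33 with siControl, so all siPSF arrays were lower. The effect was -1.03 (SE 0.18, adjusted p = 0.0134). TRAPPC9, of the TRAPP tethering complex (-0.42, adjusted p = 0.067), BBS9, of the ciliary BBSome (-0.48), EXOC4, of the exocyst (-0.28), and VPS13B (-0.26) did not pass the test.

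In the group of enzymes and ubiquitin ligases, 1 of 4 was called lower (median -0.17). FARS2, the mitochondrial phenylalanyl-tRNA synthetase gene of 521.6 kb, read 8.46 and 8.49 with siPSF in LNCaP, against 9.34 and 9.34 with siControl. Its VCaP signals were 6.49 and 6.45 with siPSF, against 7.57 and 7.30 with siControl. The 4 differences lay between -1.08 and -0.85 and the effect was -0.83 (SE 0.12, adjusted p = 0.0036), whereas the tRNA-modifying CDKAL1 (-0.19), EXT1 (-0.15) and the F-box gene FBXL17 (-0.14) did not pass.

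Among cytoskeletal genes, 1 of 3 was called lower (median -0.40). LPP, an actin-associated LIM protein gene of 737.7 kb, read 10.75 and 10.86 with siPSF in LNCaP, against 11.05 and 11.31 with siControl. In VCaP it read 10.23 and 10.38 with siPSF, against 10.61 and 10.63 with siControl. Its effect was the smallest of the 9 (-0.40, SE 0.09, adjusted p = 0.0487), and the formin DIAPH2 (-0.45) and UTRN (-0.37) did not pass. The fragile-site genes gave no calls in 4 fitted genes although their median was -0.44: FHIT, a dinucleotide hydrolase, had -0.76 with a wide error (SE 0.25, adjusted p = 0.181), IMMP2L, a mitochondrial peptidase, had -0.53 and WWOX, an oxidoreductase with WW domains, -0.35 (adjusted p = 0.0876). MACROD2, a macrodomain protein gene of 2057.7 kb, had -0.01. The scaffold genes GPHN (gephyrin, -0.26) and PARD3 (cell polarity, -0.09) and the surface and matrix genes CSMD1 (-0.06) and THSD4 (-0.04) did not pass either.

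**Figure D2:**
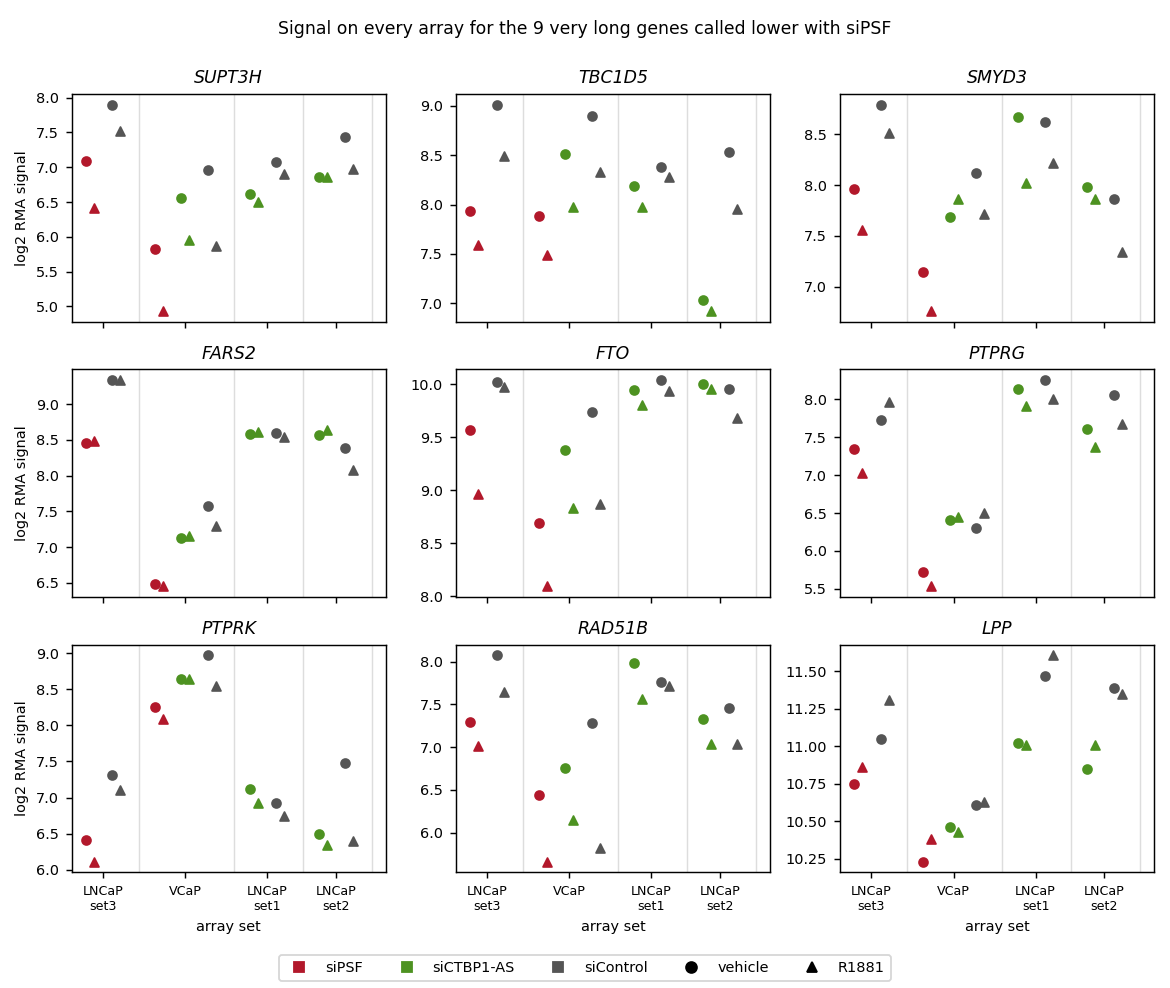
Log2 RMA signal (y axis) on every array for the 9 genes lower with siPSF, by array set (x axis), with siPSF in red, siCTBP1-AS in green and siControl in grey. Circles are vehicle and triangles R1881, and levels compare only within a set. In LNCaP set 3 and VCaP the red points lie below the grey ones for every gene except RAD51B, whose siControl R1881 array in VCaP (5.82) lies below its siPSF vehicle array (6.44).

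The 5 genes called both for siPSF and for its difference from siCTBP1-AS are shown with their promoters, as members that moved together. The windows run from 250 bases before to 50 bases after the outermost start listed by RefSeq (GRCh38.p14), 5′ to 3′ on the strand of the gene, with GC boxes (GGGCGG or its reverse complement CCGCCC) in capitals. They are FTO at chr16:53703906-53704205 (plus strand), PTPRG at chr3:61561321-61561620 (plus), SMYD3 at chr1:246507230-246507529 (minus), SUPT3H at chr6:45377885-45378184 (minus) and FARS2 at chr6:5260757-5261056 (plus), where the listed start is not that of the full span.
FTO: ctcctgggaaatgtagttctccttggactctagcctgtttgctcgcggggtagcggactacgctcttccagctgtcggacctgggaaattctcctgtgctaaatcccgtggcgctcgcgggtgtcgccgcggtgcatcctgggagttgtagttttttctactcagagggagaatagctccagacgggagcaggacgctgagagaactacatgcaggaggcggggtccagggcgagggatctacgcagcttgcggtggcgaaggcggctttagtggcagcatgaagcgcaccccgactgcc
PTPRG: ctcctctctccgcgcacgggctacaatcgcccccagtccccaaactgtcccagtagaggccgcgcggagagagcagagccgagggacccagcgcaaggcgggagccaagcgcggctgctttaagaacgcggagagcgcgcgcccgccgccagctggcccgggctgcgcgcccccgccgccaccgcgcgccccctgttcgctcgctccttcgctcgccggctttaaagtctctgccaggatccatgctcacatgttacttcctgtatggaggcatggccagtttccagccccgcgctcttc
SMYD3: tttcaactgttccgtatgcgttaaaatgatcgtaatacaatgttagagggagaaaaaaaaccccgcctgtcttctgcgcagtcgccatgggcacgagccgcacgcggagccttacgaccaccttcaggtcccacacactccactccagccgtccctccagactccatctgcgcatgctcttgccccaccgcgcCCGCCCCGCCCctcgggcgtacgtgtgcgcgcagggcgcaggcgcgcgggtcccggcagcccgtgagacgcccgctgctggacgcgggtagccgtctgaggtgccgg
SUPT3H: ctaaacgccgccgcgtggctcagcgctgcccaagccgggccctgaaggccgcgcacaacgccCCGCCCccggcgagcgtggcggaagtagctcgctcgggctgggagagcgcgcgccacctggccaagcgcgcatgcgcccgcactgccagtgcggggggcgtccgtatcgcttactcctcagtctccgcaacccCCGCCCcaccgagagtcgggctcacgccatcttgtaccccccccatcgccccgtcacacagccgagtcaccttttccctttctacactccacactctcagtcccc
FARS2: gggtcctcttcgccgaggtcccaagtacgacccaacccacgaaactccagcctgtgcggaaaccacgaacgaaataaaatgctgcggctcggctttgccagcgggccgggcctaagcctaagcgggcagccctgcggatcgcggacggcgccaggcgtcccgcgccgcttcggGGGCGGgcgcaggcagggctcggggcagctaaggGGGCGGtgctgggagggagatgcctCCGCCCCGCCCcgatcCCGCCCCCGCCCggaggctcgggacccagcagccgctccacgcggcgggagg

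A listed promoter was found for 35 of the listed genes, among them MAGI1, MAGI2 and genes left out of the fit. Over these 35, a GC box on either strand was present in 65.7%, against 45% of all 35116 windows of that length. The sequence TATAAA, or TTTATA on the other strand, was in 0 of 35, against 11.5% of all windows. The androgen receptor half-site AGAACA (or TGTTCT) was in 3 of 35 (8.57%), against 14.8%. The median number of CG pairs was 29 against 14 and the median GC content 65% against 58.7%. Such matches describe letters only. The windows of the listed genes were taken at the outermost start, whereas the comparison took all promoter windows, not only outermost ones. The shares and medians therefore compare unlike windows, and a background of outermost starts was not tested.

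The siPSF effect was set against gene span over the genes that are not on the list. Genes under 100 kb had medians of 0.00 to 0.01, with 0.343% to 0.666% called lower. From 100 to 200 kb the median was -0.03 and 2.70% were lower. At 200 to 500 kb (691 genes) the median was -0.15 and 8.39% were lower, and over 500 kb (122 genes) it was -0.26, with 18% lower and 0 higher. Taken over all 813 other genes above 200 kb, the median was -0.16, with 80 lower and 1 higher. Among all 174 genes called lower the median span was 219 kb, and 51.4% of those with a span were over 200 kb. The 26 genes called higher had a median span of 42.3 kb with 3.85% over 200 kb, and all fitted genes one of 25.8 kb with 6.13% over 200 kb. Within the 32 genes Spearman's rho between span and siPSF effect was 0.25, and over the other 813 long genes it was -0.25. These correlations are across genes measured on the same arrays and are descriptions. A share rising with span was not particular to siPSF. With R1881 in LNCaP siControl cells, 1.34% of genes off the list were lower under 10 kb and 16.4% over 500 kb. By count, 49 were lower and 85 higher under 10 kb, and 20 lower and 9 higher over 500 kb. The rho between siPSF effect and mean signal was -0.04 in the 32 and -0.05 in the 813.

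Among called genes over 200 kb outside the list, the lowest effects were on PRKCA, protein kinase C alpha (508.1 kb, -1.61, adjusted p = 0.0105), CLYBL, a mitochondrial lyase (302.8 kb, -1.57), NAALADL2 (1370.0 kb, -1.55) and NFIA, a nuclear factor I transcription factor (385.6 kb, -1.36). Each was below 0 in all 4 differences within sets. GAB2, an adaptor of receptor signalling (202.5 kb), was the 1 other long gene called higher, by 0.51 (adjusted p = 0.0412). A list of 36 genes of RNA polymerase II elongation and transcript end processing had 34 fitted. With siPSF, 0 of these were called in either direction (limma), 1 had an unadjusted p under 0.05, and the median was -0.01.

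**Figure D3:**
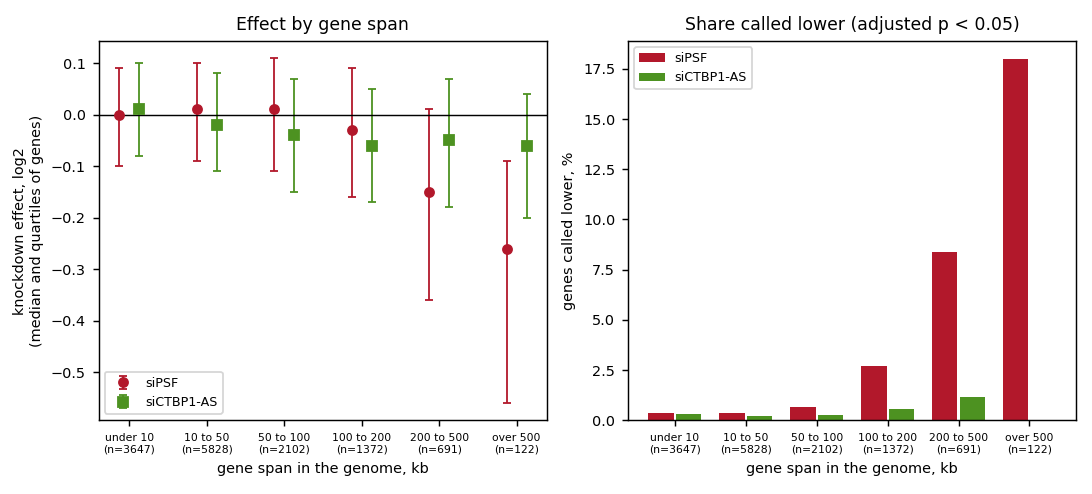
Left, median knockdown effect (log2, with the quartiles of genes as bars) by span class in kb for fitted genes not on the list, siPSF as red circles and siCTBP1-AS as green squares. Right, the percentage of genes called lower in each class. The siPSF median goes down to -0.26 and its share up to 18% over 500 kb. The siCTBP1-AS median goes from 0.01 under 10 kb to -0.06 over 500 kb.

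With siCTBP1-AS, 2 of the 32 genes were lower and 0 higher. Over all fitted genes 0.34% were called lower, 0.224% higher and 0.565% either way. Of the other genes over 200 kb, 0.984% were called lower. Arrays marked siCTBP1-AS (LNCaP set 1) and siCTBP1-AS #2 (LNCaP set 2 and VCaP) were fitted together. Whether their effects differ was not tested. An unadjusted p under 0.05 was reached by 8 of the 32 (25%), against 18.6% of all fitted genes and 22.5% of other genes over 200 kb. UTRN, the dystrophin-related utrophin gene of 567.7 kb, read 8.61 and 8.95 (vehicle, R1881) with siCTBP1-AS in LNCaP set 1, against 9.42 and 9.79 with siControl. In set 2 it read 8.81 and 9.13, against 9.73 and 9.87. Its VCaP signals were 10.51 and 10.38 with siCTBP1-AS #2, against 10.89 and 10.92 with siControl, so all 6 differences were below 0. The effect was -0.70 (SE 0.10, adjusted p = 0.0164). LPP also fell (-0.38, SE 0.07, adjusted p = 0.0478), in all 6 differences, so it was called with both siRNAs. With 1 set left out at a time, UTRN lost its call without set 1 (adjusted p = 0.0909) or set 2 (adjusted p = 0.102), and LPP lost it in each case (adjusted p = 0.0586 to 0.198). The median over the 32 genes was -0.07, with 20 below 0 (62.5%). This was near the 54.2% of all fitted genes and 60.9% of other genes over 200 kb. All 6 differences were below 0 for 4 of the 32, against 6.31% of all fitted genes and 8% of other genes over 200 kb. TBC1D5 had -0.62 (adjusted p = 0.0652), with its lowest values in set 2 (-1.51 and -1.02), and NFIB had -0.65 (adjusted p = 0.0843). Neither passed the test. By span class, the siCTBP1-AS medians of the other genes were -0.06 to 0.01 and no class had more than 1.16% called lower. The share of siCTBP1-AS effects below 0 was 46% under 10 kb and 63.9% over 500 kb.

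The difference between the siRNAs was tested as 1 contrast, siPSF effect minus siCTBP1-AS effect, with siCTBP1-AS and siCTBP1-AS #2 fitted together. It was below 0 at an adjusted p under 0.05 for 5 of the 32 genes and above 0 for 0. Over all fitted genes 0.514% were lower, 0.145% higher and 0.659% either way. Of the other genes over 200 kb, 4.8% were lower and 1 gene was higher. An unadjusted p under 0.05 was reached by 15 of the 32 (46.9%), against 11.6% of all fitted genes and 27.1% of other genes over 200 kb. The 5 were SMYD3 (-0.91, SE 0.14, adjusted p = 0.00916), FARS2 (-0.86, adjusted p = 0.0122), FTO (-0.75, adjusted p = 0.0122), SUPT3H (-0.74, adjusted p = 0.00673) and PTPRG (-0.64, adjusted p = 0.047). The median was -0.34 and 29 of the 32 were below 0, against 47.8% of all fitted genes and 66.3% of other genes over 200 kb. Of the 32, those above 0 were PTPRM (0.03), UTRN (0.34) and NFIB (0.43). Both effects use the VCaP siControl arrays, and the other arrays come from different LNCaP sets. With siCTBP1-AS the gene highest above siControl was also known from interferon responses in each set: CXCL10 (6.67) and OAS2 (6.43) in LNCaP set 1 with vehicle and R1881, IFIT1 (4.51 and 4.35) in set 2, and IFI6 (3.23) and MX1 (2.76) in VCaP. Their part in the contrast was not tested.

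**Figure D4:**
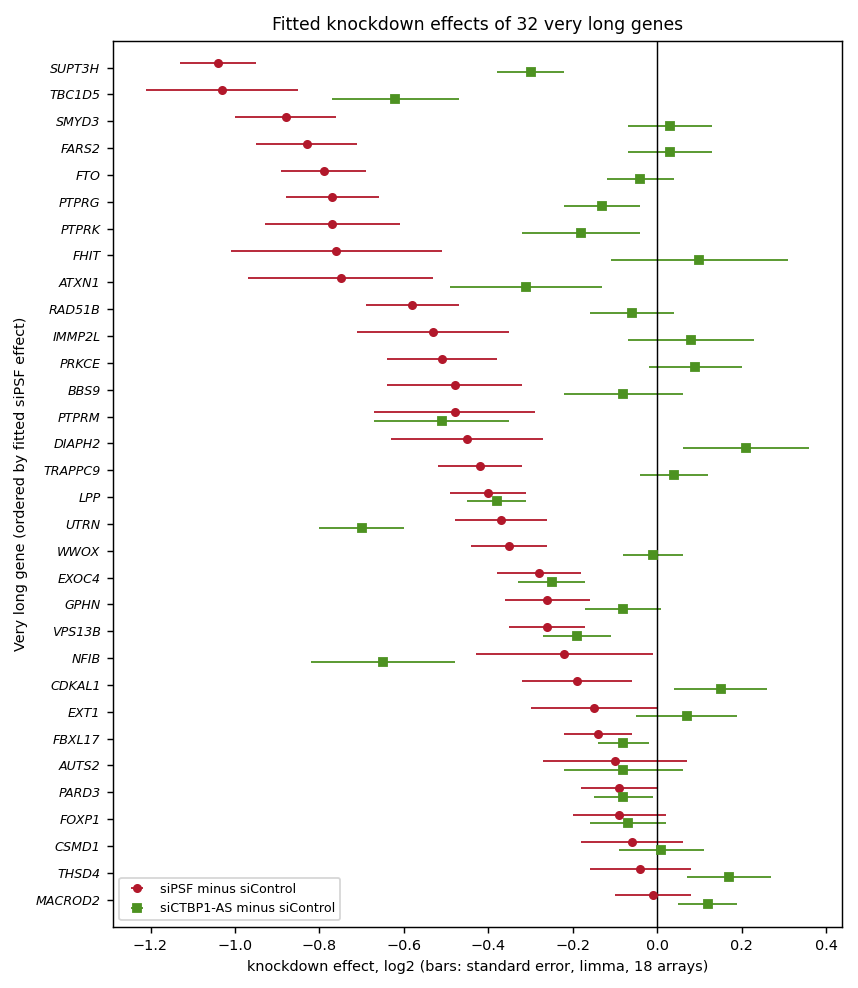
Fitted knockdown effects (log2, x axis) of the 32 genes (y axis) with standard errors as bars, siPSF as red circles and siCTBP1-AS as green squares. The red points run from -1.04 to -0.01, and the green ones from -0.70 to 0.21 with UTRN lowest.

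In LNCaP siControl cells R1881 changed 4 of the 32 genes. PTPRM rose, and CSMD1, VPS13B and SUPT3H fell (9.38% called lower). Over all fitted genes 3.66% were higher, 3.45% lower and 7.11% either way. Of the other genes over 200 kb, 10.5% were called lower, near the share of the 32. PTPRM, a receptor phosphatase of cell contacts, read 10.40, 10.72 and 11.39 with R1881 in sets 1 to 3, against 9.10, 9.00 and 9.65 with vehicle. Its response was 1.51 (SE 0.21, adjusted p = 0.00107) in LNCaP and 1.65 (adjusted p = 0.00469) in VCaP, and the difference was above 0 in all 9 pairs of arrays with the same siRNA and set (0.82 to 1.74). CSMD1, a large membrane protein with complement control repeats, had -0.78 (adjusted p = 0.00318), VPS13B, a lipid transfer protein at the Golgi, -0.50 (adjusted p = 0.0104) and SUPT3H -0.39 (adjusted p = 0.0388). The median over the 32 genes was -0.22, with 26 below 0 (81.2%), against 54% of all fitted genes and 65.9% of other genes over 200 kb.

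In VCaP siControl cells 5 of the 32 genes (15.6%) fell with R1881 and PTPRM rose. Over all fitted genes 7.3% were lower, 5.63% higher and 12.9% either way. Of the other genes over 200 kb, 9.59% were called lower. The 5 were EXT1, a heparan sulfate polymerase (-1.11), RAD51B (-1.09), DIAPH2, a formin (-0.96), SUPT3H (-0.93) and FTO (-0.65), at adjusted p-values of 0.00182 to 0.0449. VCaP siControl has 1 array per treatment, and the fit shares its siRNA-by-R1881 terms between the lines, so these responses also draw on the knockdown arrays. The plain difference of that pair was -1.15 for EXT1, -1.45 for RAD51B, -1.01 for DIAPH2, -1.09 for SUPT3H and -0.86 for FTO. The response in VCaP minus that in LNCaP was above 0 past the test for 1 of the 32, CSMD1 (0.76, adjusted p = 0.0383), and below 0 for 0. Over all fitted genes 1.64% were higher, 1.92% lower and 3.55% either way. CSMD1 read 4.2 to 4.48 on the VCaP arrays, near the means of genes left out for low signal (PTPRD 4.27, CNTNAP2 4.51). A fall could hardly show there, so the contrast cannot tell an absent response from a low signal.

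**Figure D5:**
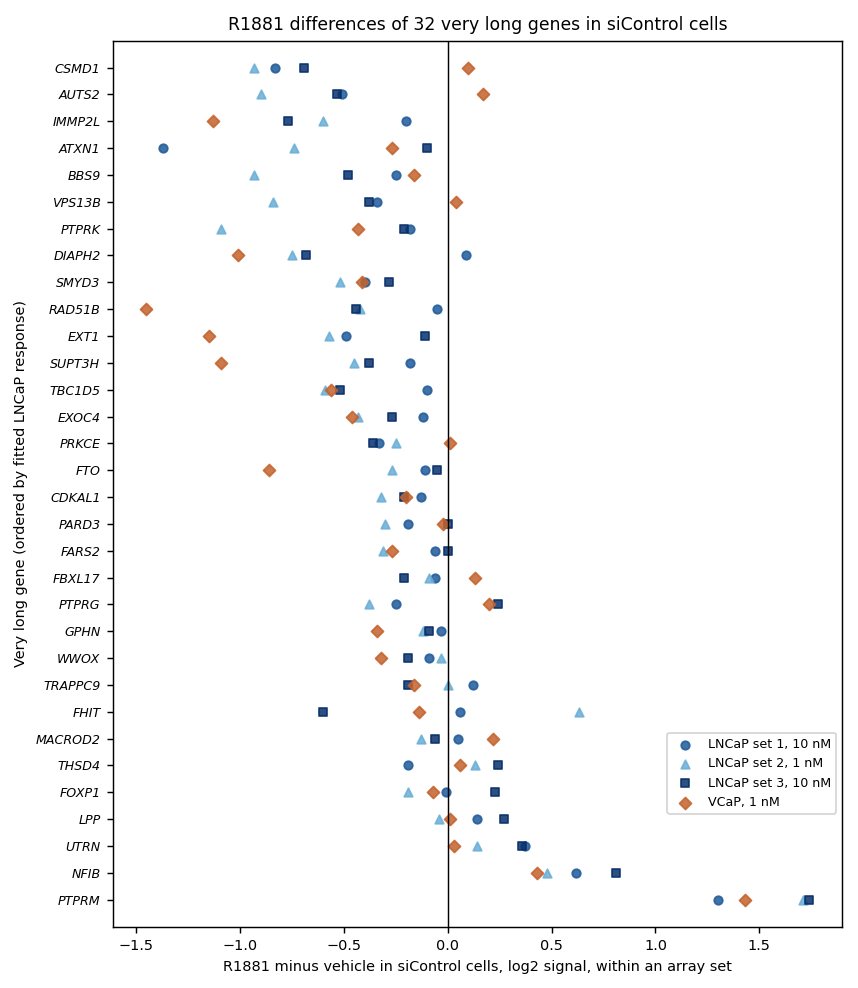
R1881 minus vehicle log2 signal within each array set (x axis) in siControl cells for the 32 genes (y axis), ordered by the fitted LNCaP response. Blue symbols are the LNCaP sets and orange diamonds VCaP. PTPRM lies far right in every set (1.30 to 1.74), and CSMD1 is left of 0 in LNCaP but not in VCaP, where its signals were low (4.2 and 4.3).

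Neither knockdown changed the R1881 response of any of the 32 genes past the test, and 0 of 13812 genes passed for either product term (limma, 0.0% of fitted genes in each). An unadjusted p under 0.05 was reached by 1 of the 32 for siPSF and 3 for siCTBP1-AS, and by 268 and 482 genes in all. The siPSF effect in VCaP minus that in LNCaP passed for 0 of the 32 (0.159% of all fitted genes). AUTS2 (-0.75, adjusted p = 0.265), GPHN (0.54, adjusted p = 0.189) and CDKAL1 (0.48, adjusted p = 0.377) had an unadjusted p under 0.05, which is 9.38% of the 32, against 11.4% of all fitted genes. Beside the 32, DLG2 was the 1 gene below the signal limit with a sizeable siPSF effect, at -0.67 (SE 0.17, adjusted p = 0.0941) when no gene was left out.

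The calls rest on 4 siPSF arrays. Fitted on only LNCaP set 3 and VCaP, 4 genes remained called (SMYD3, SUPT3H, TBC1D5 and FARS2), with 0 called without VCaP and 3 without LNCaP set 3. Over all genes, calls lower in these fits were 50, 0 and 110, against 174 in the main fit.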

How the data were processed

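The authors deposited log2 signals per transcript cluster, and the submitters' processing notes name RMA in Affymetrix Expression Console 1.1.1 as the software. Sets were read from the array names. Each gene was read through its cluster with the highest mean, and 25% of genes with the lowest mean were left out, which left 13812. Gene spans came from RefSeq (GRCh38.p14), for 99.87% of fitted genes, as did promoters. No array coordinates were used.

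Tests used limma 3.58.1 in R 4.3.3 (lmFit, eBayes, Benjamini-Hochberg over all fitted genes at 0.05), on 18 arrays with set as a block, R1881 per cell line, both siRNAs and their products with R1881, which left 8 residual degrees of freedom (6 with line terms). Arrays marked siCTBP1-AS and siCTBP1-AS #2 were fitted together, so any gap between their effects enters the spread. Set was the block because the array names number each set together, and LNCaP siControl arrays with the same replicate number deviated together (r = 0.79, 0.84 and 0.70). On data simulated for the siPSF effect over 13812 genes, 42 of 50 changes of -0.75 and 49 of 50 of -1.5 were called, with 11 false calls. Arrays correlated at 0.974 to 0.993 within sets, and their number limits the precision. Members, gene lists and the named-gene rule (all listed genes; the 4 lowest and 4 highest called others over 200 kb; called genes of the PSF and elongation lists) were chosen with earlier results of these data known. The contrast of R1881 responses between the cell lines was added after the data were seen. Alternatives tried are in the closing section.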

Additional observations from a re-analysis of the deposited data

Results flagged for a closer look

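The R1881 response of CSMD1 differed between the cell lines by a test of the difference itself (VCaP minus LNCaP 0.76, SE 0.18, adjusted p = 0.0383, limma over all fitted genes, of which 3.55% passed). In LNCaP siControl cells it read 6.47, 5.40 and 6.70 with R1881 in sets 1 to 3, against 7.30, 6.33 and 7.40 with vehicle. In VCaP siControl cells its signals were 4.30 with R1881 and 4.20 with vehicle, and levels are not comparable between sets. LNCaP sets 1 and 3 had R1881 at 10 nM and set 2 and VCaP at 1 nM. The mean of CSMD1 over all arrays, 5.82, was carried by its LNCaP signals. Genes with means of 4.27 (PTPRD) and 4.51 (CNTNAP2) were left out for low signal. Whether the VCaP signal of CSMD1 lay above background was not tested, so the test cannot tell an absent response from a signal too low to fall.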

How the results depend on the processing

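With no replicate block (cell line in place of set, so that level gaps between LNCaP sets enter the spread), 0 genes were lower with siPSF, 0 with siCTBP1-AS and 0 in their difference, the siPSF median was -0.26 with 24 of 32 below 0 (all genes 0.21), and R1881 in LNCaP gave 0 lower and 0 higher. Calls lower with siPSF were 4 on only the sets that hold it, and 0 to 10 when 1 set was left out (0 without VCaP, 3 without set 3), with medians of -0.55 to -0.39. For siCTBP1-AS they were 1 on only its sets, 1 with no filter, 1 after quantile normalization over all arrays and 1 when centred on genes under 50 kb, and 0 to 1 with a set left out. For the difference they were 0 to 4 with a set left out (0 without VCaP, 2 without set 1 or set 3). R1881 calls lower in LNCaP were 1 with the lowest 50% left out and 0 to 3 with a set left out (0 without set 2 or set 3, 1 without VCaP). LPP was called with siPSF in 2 of 11 alternatives, RAD51B in 6 and PTPRK in 7, and all 9 genes kept effects below 0 in every alternative that tested them. Over all genes, calls lower with siPSF were 174, against 50 on only its sets, 2 with no block and 0 without VCaP. They were 96 without set 1, 174 without set 2 and 110 without set 3. Restricting to clusters with 1 symbol was not run separately, since only such clusters were used throughout. The causes were not tested.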
